A study of Mus musculus with 80 samples.

Results

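Muscle stem cells (MuSCs) of the extraocular muscles (EOM) and of the tibialis anterior (TA), a hindlimb muscle, were compared by RNA-sequencing before any transplantation. The libraries compared are those sorted from the donor muscles that passed the quality control of the study, 8 from EOM and 8 from TA, which are 16 of the 20 pre-graft RNA libraries and of the 80 samples of the series. Left out for failing that control were 3 libraries of Experiment 1 (EOM mouse 1, TA mouse 1 and TA mouse 5) and 1 of Experiment 2 (EOM mouse 3). All donors were male *Tg*:*Pax7-nGFP* mice, in which the *Pax7* promoter drives a nuclear GFP, on the background C57BL/6;DBA2 F1/JRj, untreated, aged 7.6 weeks in Experiment 1 and 7 weeks in Experiment 2. Muscles were dissociated with collagenase and trypsin, and 500 GFP-positive cells per muscle and mouse were sorted into 1 library, so each library averages those cells. Experiment 1 gave 3 EOM and 2 TA libraries and Experiment 2 gave 5 and 6.

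MuSCs, or satellite cells, lie between the muscle fibre and its basement membrane and rebuild fibres after injury. They are held in quiescence by contacts with fibre and matrix, by Notch signals and by the matrix they secrete themselves. Limb muscles and their stem cells come from somites, whereas those that move the eye come from the unsegmented mesoderm of the head. The *Hox* genes and the regulators that the study itself names for each muscle are counted below but not described again. What is described is the remainder, grouped by what the genes do.

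Between 7838450 and 14402975 reads per library were sequenced for EOM and between 3326270 and 11938050 for TA. Values are log2 RPM, reads scaled to the size of the library, and a positive log2 fold change means higher in TA. On this scale 0.9 of a read stands for a gene that has none, so a fold change computed against such libraries depends on depth, and the levels are given beside it. All 10 markers of MuSCs that were checked (*Pax7*, *Myf5*, *Cdh15*, *Itga7*, *Vcam1*, *Calcr*, *Chrdl2*, *Sdc4*, *Cxcr4* and *Heyl*) had reads in every library, with summed levels of 12290 to 15730 RPM in EOM and 10600 to 18500 RPM in TA. The sum mostly reports *Sdc4*, whose mean over the 16 libraries was 13.24 log2 RPM. Of the others, *Pax7* was called higher in TA and *Chrdl2* higher in EOM, so the sum does not measure the share of MuSCs. Reads on mitochondrial genes took 4.48% ± 1.99 (SD, n = 8) of the EOM libraries and 11.3% ± 7.58 (SD, n = 8) of the TA libraries (exact permutation test, two-sided, p = 0.0328). Within Experiment 2 TA was higher by 8.57 percentage points (exact permutation p = 0.039), and within Experiment 1 by 0.374 points (exact permutation p = 0.4, where 0.1 is the smallest p that 3 against 2 allows).

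Markers of other cells were present in some libraries and are shown in the plot of cell type markers. Endothelial markers summed to 204 to 1826 RPM in EOM and 50.4 to 4677 RPM in TA, highest in TA of mice 1, 2 and 6 of Experiment 2. Of the 15 endothelial markers tested, *Cdh5* was called higher in TA, lost in edgeR, and *Tek* higher in EOM, while 12 were called higher in TA with the donor mouse as block. EOM of mouse 2 of Experiment 2 stood apart, with 2550 RPM of macrophage markers where the other 7 EOM libraries had at most 99.2 RPM, and with 1047 RPM of melanocyte markers where they had at most 8.42 RPM. Haemoglobin and other erythroid genes reached 1489 to 5542 RPM in 3 EOM libraries and 2365 to 13980 RPM in 3 TA libraries and at most 2.25 RPM in the rest. Schwann cell markers summed to 474 to 4785 RPM in EOM and 190 to 1463 RPM in TA. All 13 of them that were tested were lower in TA, with a median log2 fold change of -1.73, and *Mbp* was called higher in EOM. Oligodendrocyte markers, which share genes with the Schwann cell list, summed to 128 to 4095 RPM in EOM and 138 to 557 RPM in TA. Of the 9 tested, 7 were lower and 2 higher in TA. The part of such cells in the differences below was not tested.

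**Figure D1:**
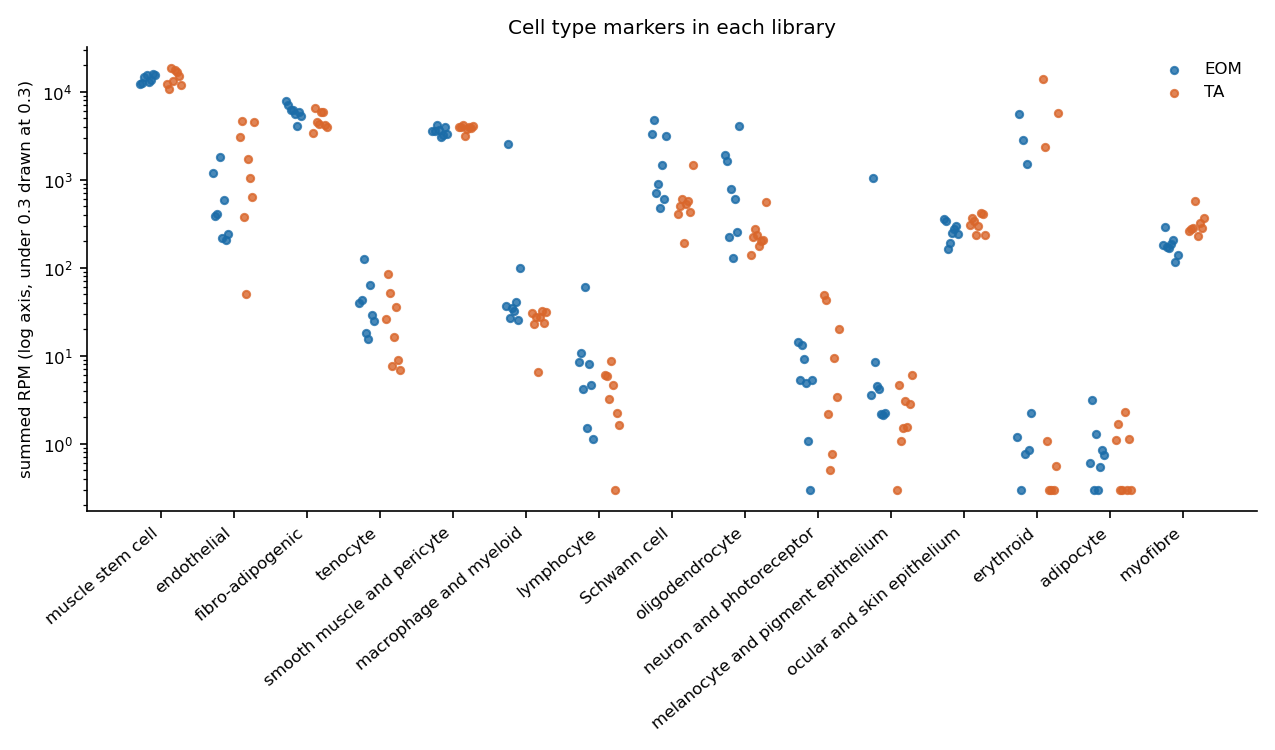
Summed level of each list of cell type markers in every library, in RPM on a log axis, with sums under 0.3 drawn at 0.3. Blue points are the 8 EOM and orange points the 8 TA libraries. The summed MuSC markers, which mostly report *Sdc4*, lie within 10600 to 18500 RPM in all 16 libraries. Erythroid markers are high in 6 libraries, 3 of each muscle, and macrophage and melanocyte markers in 1 EOM library.

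Of 13217 genes tested with limma, 437 were called higher in EOM (3.31% of genes tested) and 166 higher in TA (1.26%), which required a log2 fold change of more than 1 in size and an adjusted p under 0.05. The values of the muscles did not overlap at 239 genes higher in EOM (1.81%) and 63 higher in TA (0.477%). The median log2 fold change of all genes tested was -0.30, and centring each library on its median brought it to -0.06. TA made up 27.5% of the calls in the deposited scaling, 39.5% without mitochondrial reads, 45.97% after centring and 56.4% in edgeR, so the balance between the muscles moved with the scaling and with the tool. With the donor mouse as block, the calls were 439 higher in EOM and 266 higher in TA.

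The genes described here are therefore those whose call did not hang on the scaling or on 1 library. They were called in the same direction in the deposited scaling, after centring, with the donor mouse as block, in edgeR on recovered reads and in each of the 16 fits that leave out 1 library, and are termed stable calls. There were 168 stable calls higher in EOM (1.27%) and 115 higher in TA (0.870%), of which 147 and 88 remained after the *Hox* genes, the genes named by the study and unnamed gene models were set aside. In Experiment 1 alone, all 144 and 70 that could be tested had the same direction, and in Experiment 2 alone all 167 and 114. The stable calls were chosen on these same libraries, so this agreement follows in part from the choice and is no replication. With the 4 libraries of Experiment 2 that had most endothelial or macrophage reads left out together (TA mice 1, 2 and 6 and EOM mouse 2), 155 of 168 and 96 of the 112 still tested were called. EOM of mice 1 and 6 of Experiment 2, with 3290 and 3128 RPM of Schwann cell markers, stayed in. Reads of Schwann cells and oligodendrocytes were therefore only partly removed by this step. The counts of list members below are to be read beside these shares over all genes, and no list was tested as a set. In sorted pools, fewer cells that use a gene and less RNA of it per cell cannot be told apart.

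**Figure D2:**
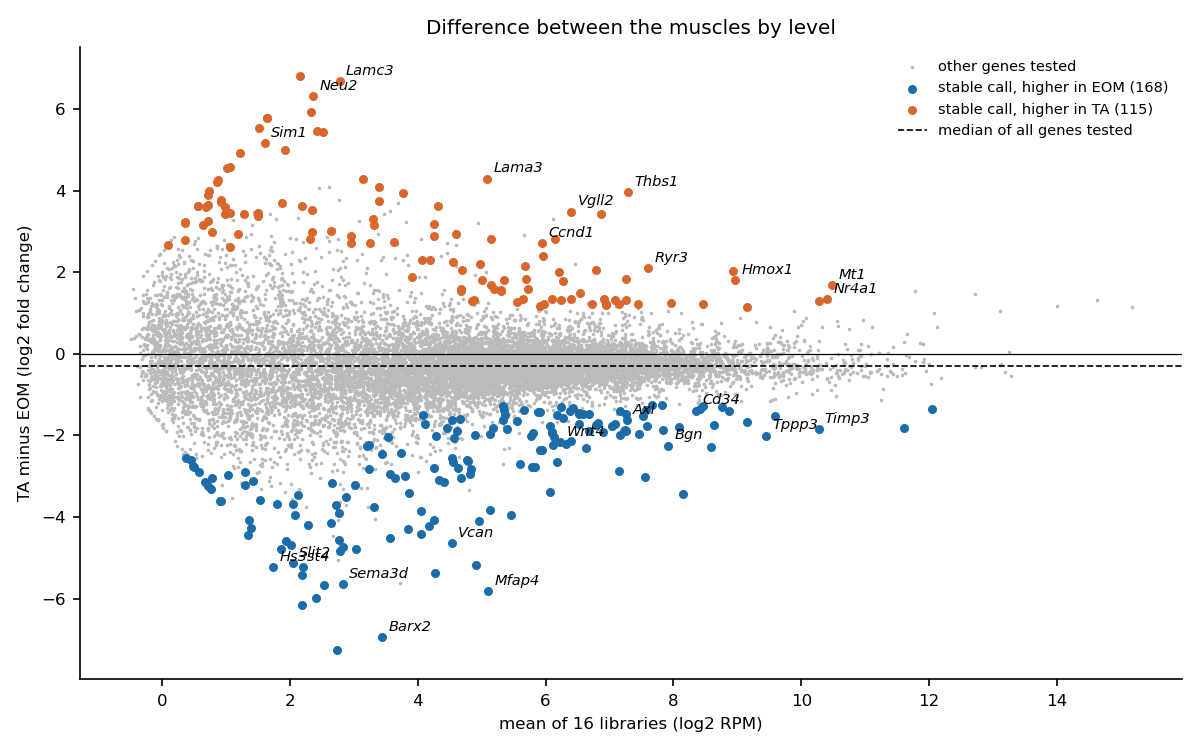
Log2 fold change (TA minus EOM) against the mean log2 RPM of the 16 libraries for the 13217 genes tested. Blue points are the 168 stable calls higher in EOM, orange points the 115 higher in TA and grey points all other genes, and the dashed line is the median of -0.30. Genes named in the text are labelled. They run from near the floor (*Hs3st4*, *Sim1*) to well-read genes (*Timp3*, *Mt1*).

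Beyond the genes that the study names, the 4 smallest adjusted p-values among genes higher in EOM belonged to genes read in every library of both muscles. *Tppp3* (ENSMUSG00000014846, chromosome 8, 105467493 to 105471526), which encodes a tubulin polymerization-promoting protein, had 1155 to 1795 RPM (median 1362) in EOM and 263 to 508 RPM (median 351) in TA, and the log2 fold change was -2.01 (SE 0.14, adjusted p 2.85e-09). *Pdlim7* (ENSMUSG00000021493, chromosome 13, 55495795 to 55513676), a PDZ and LIM domain protein of the actin cytoskeleton, had 339 to 509.7 RPM (median 439) in EOM and 101 to 145 RPM (median 119) in TA, a difference of -1.86 (SE 0.13, adjusted p 2.85e-09). For *Rcan2*, a regulator of the phosphatase calcineurin, the difference was -1.98 (SE 0.15, adjusted p 1.60e-08), and for *Spsb1*, an adaptor of ubiquitin ligases, -1.66 (SE 0.14, adjusted p 4.00e-08). In these 4 genes all EOM libraries lay above all TA libraries, and the differences within Experiment 1 (-2.001, -1.83, -1.98 and -1.66) were close to those within Experiment 2 (-1.998, -1.87, -1.96 and -1.61). In this ranking, which leaves out the *Hox* genes, those named by the study and unnamed gene models, the first 25 genes higher in EOM were all without overlap between the muscles, as were 23 of the 25 higher in TA. Ranking stable calls by adjusted p favours genes without overlap, which made up 1.81% (EOM) and 0.477% (TA) of all genes tested.

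At the other end were genes that 1 muscle hardly used. *Barx2* (ENSMUSG00000032033, chromosome 9, 31846097 to 31913462), a homeobox factor known from muscle and epithelial development, had 72.6 to 204 RPM (median 110.2) in EOM, whereas 5 of the 8 TA libraries had no read and the highest reached 8.12 RPM (log2 difference -6.94, SE 0.58, adjusted p 4.87e-08). *Hs3st4* (ENSMUSG00000078591, chromosome 7, 123982869 to 124398989), an enzyme that sulfates heparan sulfate, had 12.4 to 28.4 RPM (median 20.5) in EOM and at most 1 read in any TA library, at least 10.6-fold higher against a floor of 3 reads per library. *Dcdc2a*, a doublecortin-domain protein, had at most 3 reads in any TA library and was at least 10.3-fold higher in EOM. In the other direction *Lamc3* (ENSMUSG00000026840, chromosome 2, 31887291 to 31946539), the laminin chain γ3, had 40.6 to 119 RPM (median 67.03) in TA and no read in 5 of 8 EOM libraries (log2 difference 6.69, SE 0.52, adjusted p 1.66e-08). *Neu2* (ENSMUSG00000079434, chromosome 1, 87509889 to 87597845), a cytosolic sialidase, had 12.4 to 167 RPM (median 62.5) in TA and no read in 7 of 8 EOM libraries, the other one reaching 4.15 RPM. The plot of leading genes shows both kinds, small steps with narrow spread and an on and off pattern.

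**Figure D3:**
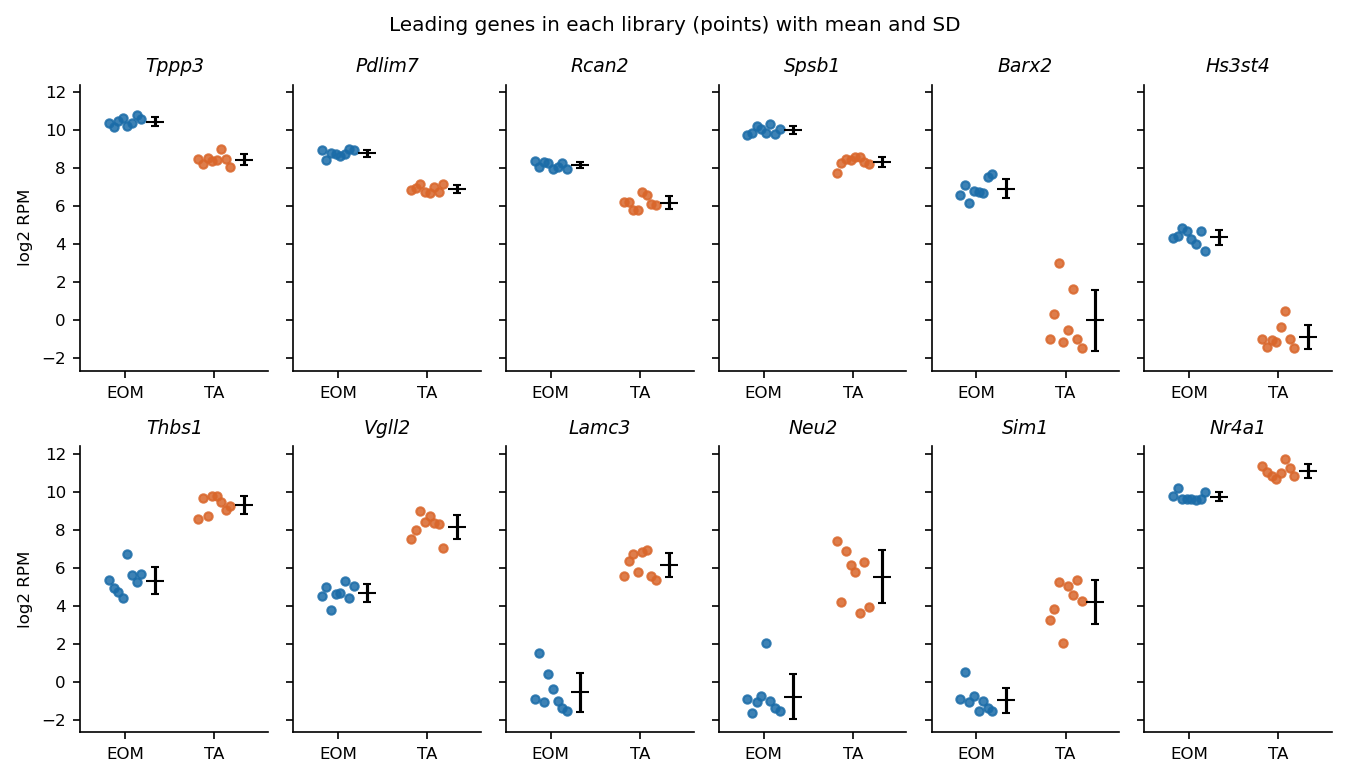
Log2 RPM of 6 genes in each direction from among those with small adjusted p-values once the *Hox* genes, the genes named by the study and unnamed gene models are set aside, higher in EOM in the upper row and higher in TA in the lower row. Each point is a library (blue EOM, orange TA, 8 each), and the black mark gives mean and SD. In all 12 genes the points of the muscles do not overlap, and *Barx2*, *Hs3st4*, *Lamc3*, *Neu2* and *Sim1* lie at the floor of no read in most libraries of 1 muscle.

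Transcription factors were among the stable calls on both sides. Of 50 non-*Hox* homeobox factors tested, 8 were called higher in EOM (5 stable) and 4 higher in TA (all stable), where 3.31% and 1.26% of all genes were called. Their median log2 fold change was -0.27 against -0.30 for all genes. *Irx5*, an Iroquois homeobox gene, had 23.02 to 44.1 RPM (median 34.1) in EOM and 0 to 6.02 RPM (median 1.58) in TA (log2 difference -4.56, SE 0.60, adjusted p 2.23e-05). Its neighbour in the Iroquois family, *Irx3*, had the same direction (-1.75) but was lost after centring and in edgeR. *Hlx*, a homeobox gene of visceral mesenchyme, had 3.07 to 8.52 RPM (median 6.34) in TA and 2 reads in 1 EOM library and none in the other 7, so it was at least 4.12-fold higher in TA. Among 8 T-box factors tested, *Tbx15* had 45.8 to 73.6 RPM (median 59.2) in EOM and 1.62 to 24.7 RPM (median 8.09) in TA (log2 difference -3.10, SE 0.42, adjusted p 3.77e-05). Of the 16 forkhead factors tested, *Foxp1* (log2 difference -1.40, SE 0.18, adjusted p 1.49e-05) and *Foxc1* (log2 difference -3.94, SE 0.62, adjusted p 2.07e-04) were stable calls higher in EOM, and no member was called higher in TA by limma, edgeR or DESeq2. *Foxc1*, a regulator of cranial and ocular mesenchyme, had 11.3 to 21.01 RPM (median 17.6) in EOM and no read in 5 of 8 TA libraries.

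Other regulators of transcription outside these families were stable calls in both directions. *Lmo2*, a LIM-only adaptor best known from blood cell precursors, had 252 to 352 RPM (median 315) in EOM and 89.01 to 156 RPM (median 115) in TA (log2 difference -1.38, SE 0.14, adjusted p 8.84e-07). *Glis3*, a zinc finger factor, differed by -2.31 (SE 0.25, adjusted p 2.52e-06), and *Dmrta2*, a DM-domain factor, had 9.99 to 54.5 RPM (median 36.9) in EOM with no read in 7 of 8 TA libraries. On the side of TA, *Vgll2* (ENSMUSG00000049641, chromosome 10, 52022502 to 52028471), a muscle cofactor of TEAD factors, had 128 to 505 RPM (median 319) in TA and 13.7 to 38.8 RPM (median 25.2) in EOM (log2 difference 3.49, SE 0.26, adjusted p 7.56e-09). *Sim1* (ENSMUSG00000019913, chromosome 10, 50895651 to 50989152), a bHLH-PAS factor, had 4.03 to 41.3 RPM (median 21.1) in TA and no read in 7 of 8 EOM libraries. *Ahr*, the aryl hydrocarbon receptor and also a bHLH-PAS protein, differed by 3.18 (SE 0.66, adjusted p 0.00332). Among the 46 bHLH factors beside the myogenic ones these 2 were the calls higher in TA, and *Mycl* (listed as *Mycl1*) was the stable one of 3 higher in EOM, with no read in any TA library and at most 14.3 RPM in EOM, at least 2.48-fold higher by its mean and lost when no filter was applied (adjusted p 0.0604). Of 25 nuclear receptors beside the retinoid and thyroid ones, *Nr4a1* (1.35) and *Nr4a3* (1.23) were stable calls higher in TA, and *Nr2f1*, an orphan receptor of head development (log2 difference -3.04, SE 0.56, adjusted p 0.00117), and *Nr1d1*, a clock component (log2 difference -1.28, SE 0.24, adjusted p 0.00112), higher in EOM. *Nr1d1* shares its locus with *Thra*, and reads of overlapping genes were not separated by strand here. *Hotair*, a non-coding RNA of the HoxC cluster, had 2.19 to 23.2 RPM (median 8.74) in TA and no read in any EOM library, at least 6.57-fold higher in TA.

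Extracellular matrix genes were called in numbers that depended on the family. Among 31 genes of elastic fibres and microfibrils tested, 9 were called higher in EOM, 4 of them stable, and none in TA by limma, edgeR or DESeq2 (1 with the donor as block), with a median log2 fold change of -0.88 (-0.64 after centring). With edgeR the count higher in EOM was 4. Over all genes tested, 3.31% were called higher in EOM with limma and 1.27% were stable calls higher in EOM. *Mfap4* (ENSMUSG00000042436, chromosome 11, 61485431 to 61488900), a microfibril glycoprotein, had 190.3 to 486 RPM (median 246) in EOM and 0 to 16.2 RPM (median 8.31) in TA (log2 difference -5.82, SE 0.59, adjusted p 8.84e-07). *Fbln5*, which assembles elastin onto microfibrils, had 146 to 257 RPM (median 235) in EOM and 0 to 84.9 RPM (median 24.4) in TA (log2 difference -3.39, SE 0.69, adjusted p 0.00296), and its lowest TA library, mouse 3 of Experiment 2, had no read. *Loxl2*, a lysyl oxidase that cross-links collagen and elastin, differed by -1.91 (SE 0.30, adjusted p 2.22e-04), with overlap between the muscles. Of 11 small leucine-rich proteoglycans tested, *Bgn* (ENSMUSG00000031375, chromosome X, 73483602 to 73495933), biglycan, was the stable call, with 382 to 839 RPM (median 516) in EOM and 47.9 to 190.4 RPM (median 119.6) in TA (log2 difference -2.25, SE 0.23, adjusted p 9.14e-07). Decorin (*Dcn*), a fibroblast marker as well, had 22.5 to 559 RPM (median 53.5) in EOM and 0 to 1013 RPM (median 0.279) in TA, a difference of -5.62 (SE 1.24, adjusted p 0.00592) that edgeR did not call. The summed markers of fibro-adipogenic cells ran from 4071 to 7760 RPM in EOM and from 3346 to 6485 RPM in TA, and all 16 had reads in both muscles. Such a sum follows the markers of highest level. Of the 15 tested, 11 were lower in TA and 4 higher, with a median of -0.72 (-0.48 after centring). With limma 3 were called higher in EOM (1 with edgeR) and none in TA (1 with the donor as block). The part of these cells in the differences was not tested.

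Basement membrane genes, by contrast, were called in both directions. Of 24 tested, 3 were stable calls higher in TA and 1, *Col15a1* (log2 difference -1.89, SE 0.31, adjusted p 2.93e-04), higher in EOM. Stable calls made up 0.870% (TA) and 1.27% (EOM) of all genes tested. Beside *Lamc3* the TA side held *Lama3*, the laminin chain α3, with 109 to 245 RPM (median 152) in TA and at most 24.5 RPM in EOM (log2 difference 4.30, SE 0.54, adjusted p 1.41e-05), and *Col4a2*, a chain of collagen IV (log2 difference 1.23, SE 0.24, adjusted p 0.00212). *Col4a2* overlapped between the muscles. Its neighbour *Col4a1*, whose annotated span overlaps it, was not called and stood at 7.45 ± 0.55 log2 RPM in EOM and 8.18 ± 0.58 in TA. The laminin chain γ1, *Lamc1*, which most basement membranes contain, was not called either, at 8.04 ± 0.35 and 8.10 ± 0.54 log2 RPM. Of 30 collagen genes tested, 3 were stable calls in each direction: *Col15a1*, *Col6a2* (log2 difference -1.77, SE 0.37, adjusted p 0.00332) and *Col16a1* (log2 difference -2.43, SE 0.58, adjusted p 0.0110) higher in EOM, and *Col19a1* (log2 difference 2.16, SE 0.34, adjusted p 1.81e-04), *Col5a3* (log2 difference 1.32, SE 0.25, adjusted p 0.00139) and *Col4a2* higher in TA. *Col19a1*, a collagen that muscle cells make, had 45.4 to 278 RPM (median 98.8) in TA and 12.5 to 42.3 RPM (median 25.7) in EOM without overlap.

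Thrombospondins divided by member. *Thbs1* (ENSMUSG00000040152, chromosome 2, 118111876 to 118127133), a secreted matricellular protein that activates TGF-β and limits vessel growth, had 375 to 882 RPM (median 659) in TA and 20.8 to 104 RPM (median 38.7) in EOM, 14.5-fold higher in TA by the mean RPM (log2 difference 3.96, SE 0.27, adjusted p 2.85e-09). *Thbs3* went the other way (log2 difference -1.72, SE 0.34, adjusted p 0.00206), with 15.5 to 42.1 RPM (median 35.5) in EOM and 6.05 to 13.9 RPM (median 9.06) in TA. Among the 28 matricellular and adhesive glycoproteins tested, 4 were stable calls higher in TA (*Thbs1*, *Svep1*, *Spock3* and *Ccn1*, listed as *Cyr61*) and 2 higher in EOM (*Thbs3* and *Vcan*). With limma 4 were called higher in TA and 5 higher in EOM (4 and 2 with edgeR), where 1.26% and 3.31% of all genes were. The median log2 fold change of the list was -0.45 (-0.21 after centring). *Vcan*, the large proteoglycan versican, had 60.9 to 192 RPM (median 122) in EOM and 0 to 18.9 RPM (median 8.55) in TA (log2 difference -4.64, SE 0.71, adjusted p 1.55e-04). *Svep1*, a large adhesion protein of the matrix, differed by 1.21 (SE 0.19, adjusted p 1.54e-04) without overlap. *Sparc* and *Thbs2*, the uncalled members with the highest levels, stood at 10.82 ± 0.15 and 8.66 ± 0.24 log2 RPM in EOM and 11.07 ± 0.66 and 8.32 ± 0.82 in TA.

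Enzymes and inhibitors of matrix turnover were called in both directions. Of 38 ADAM, ADAMTS, MMP and TIMP genes tested, 5 were called higher in EOM (4 stable) and 2 higher in TA (both stable) with limma, against 4 and 5 with edgeR and 5 and 6 with DESeq2, and the median log2 fold change was -0.18 (0.06 after centring). *Timp3* (ENSMUSG00000020044, chromosome 10, 86300372 to 86349506), a metalloproteinase inhibitor bound to the matrix, had 1580.5 to 3125 RPM (median 2379) in EOM and 382 to 1064 RPM (median 641) in TA (log2 difference -1.84, SE 0.18, adjusted p 4.05e-07). It lies within *Syn3*, which was called in the same direction and whose reads cannot be told apart from it without strand. *Mmp2*, the gelatinase A, had 1073 to 1618 RPM (median 1315) in EOM and 267 to 667 RPM (median 467) in TA (log2 difference -1.51, SE 0.18, adjusted p 9.14e-06), so that an MMP and an inhibitor of MMPs were both higher in EOM. *Adamts8* (log2 difference -3.76, SE 0.69, adjusted p 0.00104) and *Adamts6* (log2 difference -3.11, SE 0.60, adjusted p 0.00169) were the other 2 stable calls higher in EOM. On the TA side *Mmp19* differed by 1.33 (SE 0.26, adjusted p 0.00200) and *Adamts9* by 1.55 (SE 0.39, adjusted p 0.0158), which was lost (adjusted p 0.164) when the 4 libraries with most endothelial or macrophage reads were left out.

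**Figure D4:**
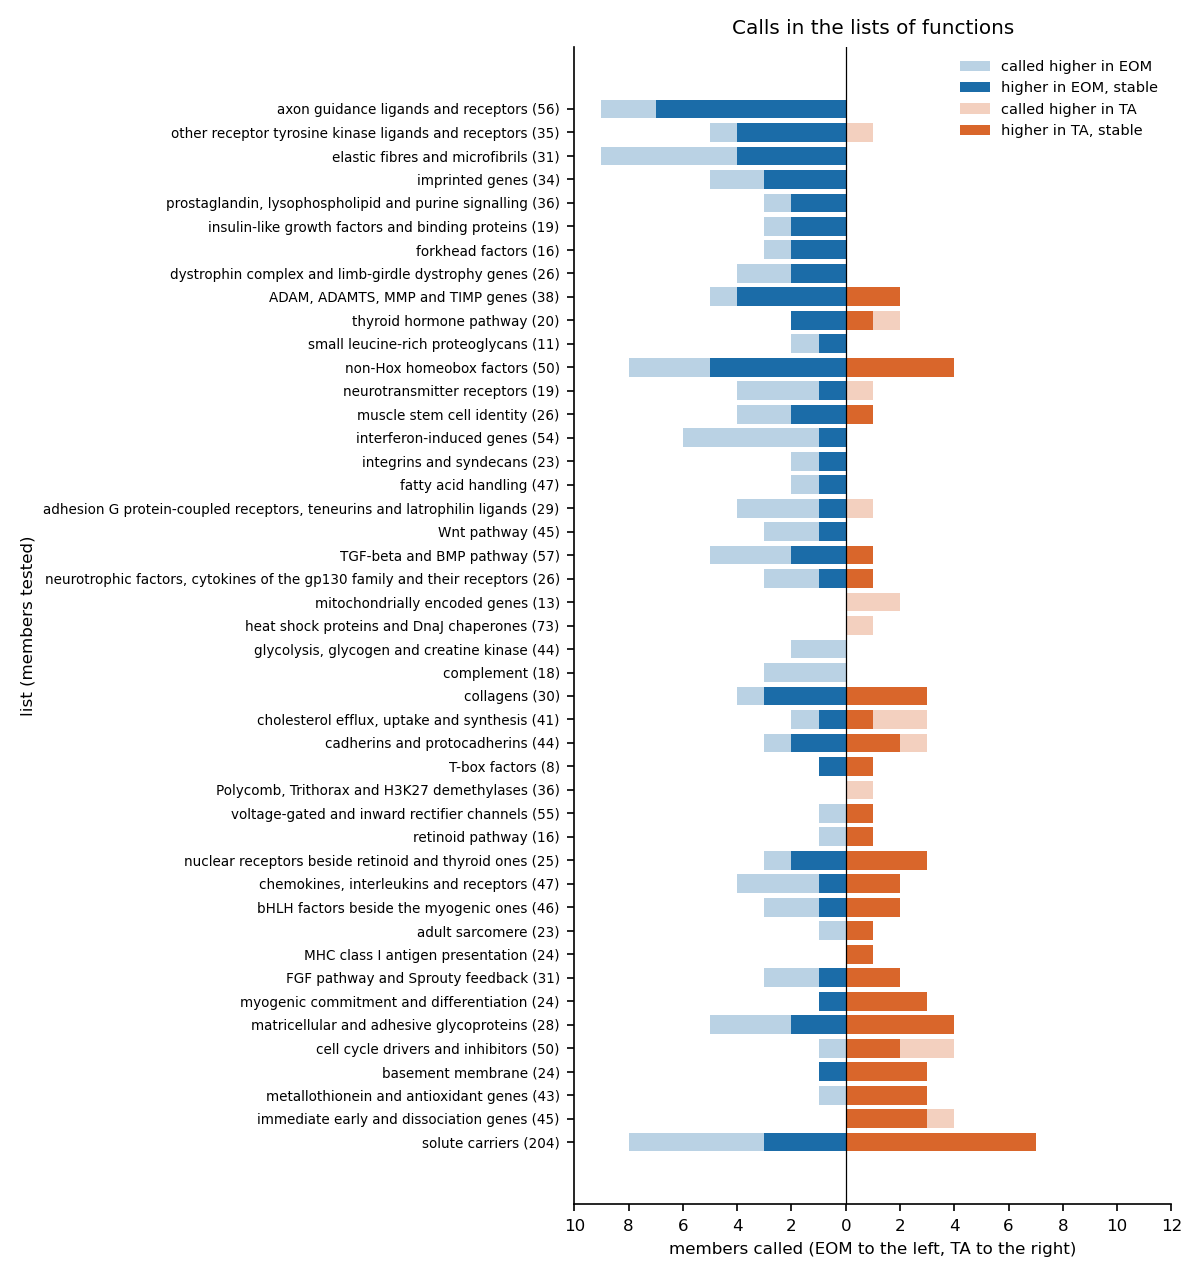
Number of members called in each list of functions that has a call, higher in EOM to the left and higher in TA to the right, with the number tested in brackets after the name. Pale bars count calls in the deposited scaling and dark bars the stable calls among them. Axon guidance and elastic fibre genes have 9 calls each higher in EOM and none higher in TA in this scaling, and early response genes have 4 higher in TA and none higher in EOM.

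Ligands and receptors of axon guidance, molecules that steer growing nerve fibres and migrating cells, had stable calls higher in EOM. Of 56 tested with limma, 9 were called higher in EOM, 7 of them stable, and none higher in TA (1 with edgeR, 2 with DESeq2 and 1 with the donor as block), while the median of -0.28 was close to that of all genes. Over all genes tested, 3.31% were called higher in EOM and 1.27% were stable calls higher in EOM. *Sema3d* (ENSMUSG00000040254, chromosome 5, 12383166 to 12588943), a secreted semaphorin, had 20.3 to 89.9 RPM (median 57.02) in EOM and no read in 5 of 8 TA libraries (log2 difference -5.65, SE 0.59, adjusted p 1.39e-06). *Slit2* (ENSMUSG00000031558, chromosome 5, 47983155 to 48306282), a ligand of Robo receptors, had 8.94 to 88.5 RPM (median 23.7) in EOM and no read in 7 of 8 TA libraries (log2 difference -5.14, SE 0.61, adjusted p 6.34e-06). The ephrin receptor *Epha7* (-3.16), the semaphorin *Sema3b* (-1.51) and the guidance protein *Draxin*, listed as a gene model (-4.67), had smaller adjusted p-values than the other 2 stable calls, and all 5 named here were without overlap. They were picked by adjusted p, and 1.81% of all genes tested were higher in EOM without overlap. *Sema3b*, read in all libraries, had 80.02 to 209 RPM (median 119) in EOM and 27.2 to 69.4 RPM (median 43.3) in TA.

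Growth factor signalling differed in single members. *Wnt4* (ENSMUSG00000036856, chromosome 4, 137277489 to 137299726) had 107 to 280.4 RPM (median 154) in EOM and 23.1 to 64.95 RPM (median 31.6) in TA (log2 difference -2.17, SE 0.23, adjusted p 1.19e-06) and was the stable call among 45 Wnt pathway genes. In the TGF-β and BMP pathway, with 57 genes tested, *Fstl3* and *Chrdl2*, secreted antagonists of activins and BMPs, were stable calls higher in EOM, by -2.02 (SE 0.21, adjusted p 1.19e-06) and -2.28 (SE 0.27, adjusted p 6.78e-06). *Tgfb2*, a ligand, was the call higher in TA (log2 difference 1.35, SE 0.21, adjusted p 2.28e-04). *Fstl3* overlaps *Prss57*, which was called in the same direction. In the FGF pathway *Il17rd*, an inhibitor of FGF receptor signalling also known as Sef, was higher in EOM (log2 difference -2.60, SE 0.36, adjusted p 3.81e-05). *Dusp5* and *Spred1*, which restrain ERK signalling, were higher in TA, by 1.48 (SE 0.19, adjusted p 1.76e-05) and 1.33 (SE 0.22, adjusted p 4.00e-04), so that the stable calls of both directions among these 31 genes were negative regulators. The receptor *Fgfr1*, the uncalled member with the highest level, stood at 10.91 ± 0.11 log2 RPM in EOM and 10.51 ± 0.29 in TA.

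The next list held 35 tested genes, other ligands and receptors of receptor tyrosine kinases together with angiopoietin-like proteins. Of these, 5 were called higher in EOM, 4 of them stable, and 1 higher in TA, where 3.31% and 1.26% of all genes were called. Their median log2 fold change was 0.20 (0.44 after centring). *Axl* (ENSMUSG00000002602, chromosome 7, 25757273 to 25788705), the receptor for Gas6, had 205 to 437 RPM (median 265) in EOM and 56.02 to 122 RPM (median 90.4) in TA (log2 difference -1.62, SE 0.18, adjusted p 1.96e-06). *Pdgfc*, a PDGF ligand, had 27.99 to 45.2 RPM (median 37.6) in EOM and 0 to 5.28 RPM (median 0.820) in TA (log2 difference -4.74, SE 0.57, adjusted p 7.99e-06). *Angptl4*, a secreted inhibitor of lipoprotein lipase, differed by -1.39 (SE 0.24, adjusted p 5.52e-04). *Tek*, the angiopoietin receptor and an endothelial marker, had 97.1 to 198 RPM (median 156) in EOM and 13.6 to 90.9 RPM (median 65.1) in TA (log2 difference -1.45, SE 0.30, adjusted p 0.00322), and DESeq2 put it just under the fold threshold. *Cdh5*, which defines endothelium, was without a read in 5 of 8 EOM libraries, the summed endothelial markers are given above, and their part in the difference of *Tek* was not tested. With the donor as block, 5 genes of this list were called higher in TA. Of 26 neurotrophic and gp130 cytokine genes, the ligand *Gdnf* was a stable call, with 10.9 to 51.1 RPM (median 17.97) in TA and 0 to 8.08 RPM (median 4.74) in EOM (log2 difference 2.72, SE 0.63, adjusted p 0.00783), and its receptor *Gfra1* was a stable call of the other direction, with 410.1 to 588 RPM (median 510.2) in EOM and 49.1 to 281 RPM (median 157) in TA (log2 difference -1.79, SE 0.26, adjusted p 6.82e-05). A list of 19 tested genes held insulin-like growth factor genes, binding proteins and the non-coding RNA *H19*. Of these, *Igfbp4* (log2 difference -1.87, SE 0.26, adjusted p 4.59e-05) and *H19* (log2 difference -2.83, SE 0.58, adjusted p 0.00317) were stable calls higher in EOM.

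The Notch pathway, which maintains quiescence, and the Hedgehog pathway had no call in either direction among 34 and 15 genes tested with limma, nor with edgeR, whereas DESeq2 called 1 Notch gene and the fit with the donor as block 1 Hedgehog gene higher in TA. At an unadjusted p under 0.05 there were 5 and 4. *Notch1* stood at 9.19 ± 0.21 log2 RPM in EOM and 9.20 ± 0.36 in TA, and *Notch3* at 8.52 ± 0.26 and 8.77 ± 0.41.

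Cell surface and adhesion genes differed by member. *Cd34* (ENSMUSG00000016494, chromosome 1, 194938821 to 194961292), a sialomucin of quiescent MuSCs that endothelial and fibro-adipogenic cells carry too, had 456 to 603 RPM (median 525) in EOM and 131 to 275 RPM (median 215) in TA (log2 difference -1.39, SE 0.15, adjusted p 1.81e-06). *Sdc1*, a heparan sulfate proteoglycan, had 131 to 236 RPM (median 178) in EOM and 0 to 49.1 RPM (median 15.7) in TA (log2 difference -3.95, SE 0.62, adjusted p 1.92e-04) and was the stable call among 23 integrins and syndecans. *Sdc4* and the integrin *Itga7*, both used to identify MuSCs, were not called, at 13.22 ± 0.20 and 8.84 ± 0.21 log2 RPM in EOM and 13.26 ± 0.28 and 8.80 ± 0.50 in TA. Of 44 cadherins and protocadherins, *Cdh4* (R-cadherin, log2 difference -2.77, SE 0.30, adjusted p 2.23e-06) and *Pcdh9* (log2 difference -4.07, SE 0.70, adjusted p 5.72e-04) were higher in EOM, and *Cdh2* (N-cadherin, log2 difference 2.94, SE 0.62, adjusted p 0.00375) and *Pcdh17* (log2 difference 3.63, SE 0.61, adjusted p 4.16e-04) higher in TA. *Cdh15*, the M-cadherin of MuSCs, was not called, at 8.57 ± 0.29 and 8.85 ± 0.50 log2 RPM. *Adgre5*, listed as *Cd97*, was the stable call among 29 adhesion receptors and their ligands, with 303 to 462 RPM (median 332) in EOM and 37.3 to 151 RPM (median 118) in TA (log2 difference -1.77, SE 0.22, adjusted p 1.49e-05). *Cd109*, a co-receptor that binds TGF-β, had 20.1 to 127 RPM (median 40.7) in TA and 0 to 11.3 RPM (median 2.64) in EOM (log2 difference 4.09, SE 0.63, adjusted p 1.56e-04).

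Early response genes, which cells switch on within minutes of a stimulus or of tissue dissociation, leaned to TA. Of 45 tested, 4 were called higher in TA, 3 of them stable, and none in EOM with limma, and the median was 0.36 (0.60 after centring) against -0.30 (-0.06) for all genes. After centring and with edgeR the count higher in TA was 9 each. With limma, 1.26% of all genes tested were called higher in TA. *Nr4a1* (ENSMUSG00000023034, chromosome 15, 101266846 to 101274792), an orphan nuclear receptor, had 1593 to 3349 RPM (median 2062) in TA and 741 to 1158 RPM (median 776) in EOM (log2 difference 1.35, SE 0.15, adjusted p 4.19e-06), without overlap. *Nr4a3* differed by 1.23 (SE 0.30, adjusted p 0.0128) and *Ccn1* by 1.25 (SE 0.29, adjusted p 0.00779), both with overlap. *Egr1* and *Fosb*, with the highest levels among those not called, stood at 11.42 ± 0.36 and 11.35 ± 0.40 log2 RPM in EOM and 11.91 ± 0.37 and 11.51 ± 0.51 in TA. The protocol describes the same digestion for both muscles, cells were frozen or used directly, and the part of handling in these differences was not tested.

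Both classical metallothioneins, small proteins that bind zinc and copper, were higher in TA. *Mt1* (ENSMUSG00000031765, chromosome 8, 94179089 to 94180325) had 1494 to 6244 RPM (median 2256) in TA and 653 to 952 RPM (median 787) in EOM (log2 difference 1.68, SE 0.23, adjusted p 4.74e-05), and *Mt2* (ENSMUSG00000031762, chromosome 8, 94172618 to 94173567) had 1224 to 3962 RPM (median 1545) in TA and 546 to 1051 RPM (median 828) in EOM (log2 difference 1.30, SE 0.22, adjusted p 3.88e-04). In both genes every TA library lay above every EOM library, and the highest of each was TA of mouse 4 of Experiment 2, the library with the fewest reads on genes (963432). *Hmox1*, the stress-induced haem oxygenase, was the third stable call of the list, with 500.1 to 2066 RPM (median 909.8) in TA and 146 to 729 RPM (median 244) in EOM (log2 difference 1.80, SE 0.30, adjusted p 3.88e-04). Of the 43 metallothionein and antioxidant genes tested these 3 were called higher in TA, where 1.26% of all genes were, and the median of -0.12 was close to that of all genes. Since the pair lies side by side and moved together, their promoter windows are shown, from 250 bases before to 50 after the annotated start (RefSeq, GRCm38.p6, plus strand, *Mt1* at chr8:94178839-94179138 and *Mt2* at chr8:94172368-94172667). Capitals mark the core of the metal response element, searched as TGCACNC and TGCGCNC on both strands.
Mt1: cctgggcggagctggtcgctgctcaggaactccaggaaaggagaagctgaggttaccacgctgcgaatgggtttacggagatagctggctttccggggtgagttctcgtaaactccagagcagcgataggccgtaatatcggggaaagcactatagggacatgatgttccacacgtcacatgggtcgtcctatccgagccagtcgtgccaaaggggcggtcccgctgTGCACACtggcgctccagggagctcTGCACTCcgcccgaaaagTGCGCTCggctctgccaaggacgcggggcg
Mt2: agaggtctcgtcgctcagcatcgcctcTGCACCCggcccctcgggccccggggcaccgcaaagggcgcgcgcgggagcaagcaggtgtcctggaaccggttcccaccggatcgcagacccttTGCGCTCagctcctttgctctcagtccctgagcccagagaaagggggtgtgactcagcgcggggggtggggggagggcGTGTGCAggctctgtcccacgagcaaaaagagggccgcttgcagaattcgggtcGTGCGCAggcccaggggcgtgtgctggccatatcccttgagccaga
The windows held 3 and 4 matches, and 25.7% of the 32851 promoters searched held at least 1, 1.97% at least 3 and 0.517% at least 4. The matches at bases 253 to 259 and 271 to 277 of *Mt1* and 255 to 261 of *Mt2* lie after the annotated start. A match is a description of the sequence and says nothing of binding in these cells.

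Other responses to stress and immune signals gave few stable calls. Among 54 interferon-induced genes, 6 were called higher in EOM, where 3.31% of all genes were, but centring and edgeR left 1, *Zbp1*, a sensor of nucleic acids (log2 difference -3.50, SE 0.58, adjusted p 3.33e-04). Of 73 heat shock proteins and DnaJ chaperones none was a stable call. In 24 genes of MHC class I presentation *H2-Q6* was called higher in TA (log2 difference 3.16, SE 0.81, adjusted p 0.0170), a member of a gene family whose copies share reads, and its call was lost with the 4 libraries left out (adjusted p 0.186). The chemokine *Cxcl2* had 8.57 to 61.4 RPM (median 26.7) in TA and 0 to 7.55 RPM (median 4.72) in EOM (log2 difference 2.73, SE 0.59, adjusted p 0.00500), and *Il34*, a ligand of the receptor of macrophage growth factor, differed by 3.44 (SE 0.83, adjusted p 0.0112), which was lost with the 4 libraries left out (adjusted p 0.139). No complement gene of 18 tested was a stable call.

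Genes of sterol metabolism were called in both directions. *Abca1*, which exports cholesterol, was a stable call higher in EOM, with 69.9 to 145 RPM (median 95.95) in EOM and 17.6 to 52.6 RPM (median 37.9) in TA (log2 difference -1.42, SE 0.22, adjusted p 1.99e-04). The 41 genes of cholesterol handling had a median of 0.52 (0.76 after centring), and 3 of them were called higher in TA and 2 in EOM, where 1.26% and 3.31% of all genes were. The number called higher in TA was 9 after centring, 10 with edgeR and 1 with the donor as block. *Fdps*, of the mevalonate pathway (log2 difference 1.12, SE 0.25, adjusted p 0.00646), was lost with that block.

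Genes of energy metabolism gave few calls. The 13 mitochondrially encoded genes had a median log2 fold change of 1.16, with *mt-Nd2* (log2 difference 1.55, SE 0.43, adjusted p 0.0291) and *mt-Nd4* (log2 difference 1.48, SE 0.43, adjusted p 0.0379) called higher in TA and neither stable, 8 called with edgeR and 4 with the donor as block. They moved with the share of mitochondrial reads given above, which was 14.4% to 22.9% in TA of mice 1, 2, 3 and 6 of Experiment 2 and at most 7.00% in the other 4 TA libraries. None of 85 nuclear genes of oxidative phosphorylation was called with limma, edgeR or DESeq2 (8 at an unadjusted p under 0.05), with a median of -0.21. Nor was any of 83 cytosolic ribosomal protein genes, whose median was -0.41 (-0.17 after centring) and of which 38 had an unadjusted p under 0.05. No gene of glycolysis was a stable call, and *Angptl4* was the one among 47 genes of fatty acid handling. Of 204 solute carriers, 7 were stable calls higher in TA and 3 higher in EOM, where 0.870% and 1.27% of all genes were. The EOM count was near that share. *Slc4a4*, a sodium bicarbonate cotransporter, had 21.8 to 54.7 RPM (median 45.4) in TA and 4.18 to 13.97 RPM (median 10.2) in EOM (log2 difference 2.30, SE 0.36, adjusted p 1.98e-04), and *Slc10a6*, *Slc7a2*, *Slc7a8* and *Slco2a1* followed (1.23, 1.68, 1.32 and 3.62). *Slc38a4*, an amino acid transporter, was higher in EOM (log2 difference -3.89, SE 0.64, adjusted p 3.53e-04), as were *Slc39a8* (-3.22) and *Slc16a6* (-2.66). *Adh1*, an alcohol dehydrogenase that also oxidizes retinol, had 88.2 to 295 RPM (median 205) in TA and 3.85 to 70.1 RPM (median 33.3) in EOM (log2 difference 2.81, SE 0.41, adjusted p 8.99e-05) and was the stable call among 16 genes of the retinoid pathway.

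Of 24 genes of myogenic commitment, 3 were stable calls higher in TA and 1 higher in EOM, where 0.870% and 1.27% of all genes were, and edgeR and DESeq2 each called 5 and 1. Beside a regulator the study names, *Cdh2* and *Acta1*, the skeletal α-actin (log2 difference 2.89, SE 0.75, adjusted p 0.0185), were the stable calls higher in TA, and *Bex1*, a small adaptor protein, higher in EOM (log2 difference -4.21, SE 0.60, adjusted p 6.41e-05). *Myh4*, the fast myosin of type IIb fibres, was the stable call among 23 sarcomere genes, with 1.53 to 30.7 RPM (median 4.18) in TA and 0 to 4.55 RPM (median 0.586) in EOM (log2 difference 2.63, SE 0.69, adjusted p 0.0196). The markers of mature fibres summed to 116 to 288 RPM in EOM and 227 to 574 RPM in TA, and their part in these differences was not tested. *Acta1* was lost with the 4 libraries left out (adjusted p 0.109) and *Myh4* without the filter on low values (adjusted p 0.0883). *Ryr3*, a calcium release channel of immature muscle, had 197 to 681 RPM (median 397) in TA and 52.5 to 251 RPM (median 84.6) in EOM (log2 difference 2.099, SE 0.30, adjusted p 5.51e-05), and it overlaps *Aven*, which was called in the same direction. Of 50 cell cycle genes, *Ccnd1* (ENSMUSG00000070348, chromosome 7, 144929931 to 144939869), cyclin D1, was a stable call, with 57.5 to 443 RPM (median 154) in TA and 9.02 to 49.7 RPM (median 27.02) in EOM (log2 difference 2.72, SE 0.42, adjusted p 1.65e-04). The gene overlaps *Oraov1*. *Cdkn1a* and *Btg1*, which restrain the cycle and have the highest levels among those not called, stood at 9.64 ± 0.36 and 9.76 ± 0.27 log2 RPM in EOM and 10.52 ± 0.30 and 10.08 ± 0.31 in TA. Their means were thus higher in TA, by less than the fold threshold of 1 on the log2 scale.

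Genes of chromatin and excitability were called in numbers that depended on the list. Of 20 enzymes of DNA methylation and demethylation none was called with limma, edgeR or DESeq2 and 1 higher in TA in Experiment 1 alone, with 5 at an unadjusted p under 0.05, and of 36 Polycomb, Trithorax and H3K27 demethylase genes none was a stable call. Among 34 imprinted genes, 5 were called higher in EOM, where 3.31% of all genes were. Of these, *H19*, *Rtl1* (log2 difference -1.72, SE 0.41, adjusted p 0.0101) and *Nespas* (log2 difference -5.22, SE 0.58, adjusted p 2.90e-06) were stable. None was called higher in TA with limma, and 1 each with edgeR, DESeq2 and the donor as block. *Nespas* is transcribed against *Gnas*, which was not called at 12.97 ± 0.18 and 12.65 ± 0.40 log2 RPM, and reads of this pair were not separated by strand. Of 55 ion channel genes *Kcne4* was the stable call, higher in TA (log2 difference 3.69, SE 0.95, adjusted p 0.0170), and it was lost with the 4 libraries left out (adjusted p 0.147). Of 19 neurotransmitter receptors it was the kainate receptor *Grik3*, higher in EOM (log2 difference -3.57, SE 0.66, adjusted p 0.00117). In lipid mediator and purine signalling, with 36 genes tested, *Enpp2*, which makes lysophosphatidic acid, had 177 to 568 RPM (median 299) in EOM and 72.8 to 147 RPM (median 113) in TA (log2 difference -1.52, SE 0.20, adjusted p 3.11e-05), and the receptor *P2ry14* differed by -2.99 (SE 0.70, adjusted p 0.00879). In the list of dystrophin complex and limb-girdle dystrophy genes, *Ano5*, a membrane scramblase mutated in a limb-girdle dystrophy, had 16.2 to 74.9 RPM (median 36.95) in EOM and 0.420 to 10.96 RPM (median 5.82) in TA (log2 difference -3.04, SE 0.56, adjusted p 0.00124), and *Col6a2* was the other stable call of 26.

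Among other leading genes were the olfactory receptor *Olfr1507*, with 23.95 to 86.1 RPM (median 38.7) in EOM and no read in 6 of 8 TA libraries (log2 difference -5.66, SE 0.57, adjusted p 8.84e-07). Further genes higher in EOM were *Aftph* and *Oaf* (-1.69 and -1.89), the GTPase activator *Arhgap20* (-2.03) and the cytoskeletal protein *Add3* (-1.76). Higher in TA were *Sorbs2*, an adaptor of stress fibres (5.43), *Coch* (5.47), *Nav3* (4.30), *Ankrd29* (2.81), *Fam124a* (1.84) and the scaffold protein *Lin7a* (1.78). *Tmem61* had at most 1 read in any EOM library and was at least 10.04-fold higher in TA. Of the 147 and 88 stable calls, 92 higher in EOM and 46 higher in TA belonged to none of the 50 lists of functions.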

How the data were processed

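RNA of 500 sorted cells per library was amplified by G&T-seq and sequenced as 75-bp paired reads. The submitters' processing notes name Trim Galore 0.4.4 and HISAT2 2.1.0, and the build is GRCm38. The deposited values are log2 RPM per gene, made by the authors in SeqMonk, and whole reads were recovered for 99.9915% of them (tolerance 0.02 read). The deposited quality table gives the authors' count of total reads per library and the percent of reads in genes and on mitochondrial genes. The strand of reads was not used, so overlapping genes were not separated.

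Genes over a log2 RPM of 1 in at least 4 of 16 libraries were compared with limma 3.58.1 (R 4.3.3, trended variance, Benjamini-Hochberg adjustment), and edgeR 4.0.16 and DESeq2 1.42.0 were run on the recovered reads. Steps were tested on simulated data. The 14 libraries of 7 mice that gave both muscles were also fitted with the mouse as block, since the same animal gave both, and their deviations correlated at -0.056 to 0.194. Named were the 25 stable calls in each direction with the smallest adjusted p, up to 5 per list and direction, and up to 2 uncalled members of highest level. A call that is not stable is given with the fit that loses it. Members and lists were chosen with earlier results of these data known. P-values of fits without the block and of the permutation tests measure the spread between libraries of the same muscle, each from a different mouse. These leave aside that 7 mice gave both muscles. P-values of the fit with the mouse as block and of the sign-flip test measure the spread of the differences within a mouse. A bound on a fold uses a floor of 3 reads per library and covers counting error only. Some genes that the naming rule selects are not reported here.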

Additional observations from a re-analysis of the deposited data

Results flagged for a closer look

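Among 262 groups of 8 values examined, 33 held a library whose gap to the next, as a share of the range of its group, exceeded the critical value of Dixon's test. In groups of normally distributed values chance gives about 1 in 20. Libraries without a read take a value set by depth, as in several groups below. The number flagged can therefore not be set against that rate. All values here are log2 RPM unless stated, and none was explained. TA of mouse 3 of Experiment 2, the library with the fewest genes detected (10948), was lowest in 11 of them. It had no read (-1.14) for *Col16a1*, *Epha7*, *Fbln5*, *Kcne4* and *Sdc1*, and stood at 4.14 for *Abca1*, 5.22 for *Cd97*, 2.60 for *Cdh4*, -0.99 for *Cdh5*, 2.33 for *Coch* and 3.77 for *Tek*. TA of mouse 1 of Experiment 2 had no read (-1.02) for *H19* and *Slc16a6* and 7.71 for *Spsb1*. TA of mouse 2 of Experiment 2 was highest for *Dcn* (9.99, where the next TA library had 0.62), lowest for *Ano5* (-1.25) and lowest in the percent of reads in genes (84.84%). Of the other TA libraries, mouse 3 of Experiment 1 was highest for *Aftph* (6.92), mouse 4 of Experiment 1 lowest for *Acta1* (1.94), mouse 4 of Experiment 2 highest for *Cyr61* (9.86) and mouse 6 of Experiment 2 lowest for *Il17rd* (1.51).

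In EOM, mouse 1 of Experiment 2 was highest for *Mfap4* (8.93) and *Hlx* (0.26) and lowest for *Mmp19* (4.58) and *Cxcl2* (-0.90). EOM of mouse 2 of Experiment 2, which had the most macrophage and melanocyte reads, was highest for *Sim1* (0.48) and lowest for *Adh1* (1.94) and *Ahr* (-1.67). EOM of mouse 4 of Experiment 2 was highest for *Neu2* (2.05) and lowest for *Pcdh17* (-1.41). The lowest values of *Lama3* (-0.93), *Slc16a6* (4.94) and *Thbs3* (3.96) in EOM were those of mouse 3 and mouse 5 of Experiment 1 and mouse 5 of Experiment 2. Every stable call among these genes kept its call without the library concerned, by the way stable calls were chosen.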

How the results depend on the processing

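The number of calls moved with the scaling, the tool and the libraries used, and the cause was not tested. The fits of single experiments had fewer libraries, whereas the fit with all 20 added the 4 that failed quality control. Among these, EOM of mouse 1 and TA of mouse 5 of Experiment 1 had 302 and 56368 reads on genes. A gene without a read there stands at 10.7 and 4.40 log2 RPM. Higher in EOM were 437 genes, against 275 after centring, 191 with edgeR, 260 with DESeq2, 143 in Experiment 1 alone and 173 with all 20 pre-graft libraries. Higher in TA were 166 genes, against 266 with the donor mouse as replicate block, 326 with DESeq2, 97 in Experiment 2 alone, 102 in Experiment 1 alone and 29 with all 20 libraries. Leaving out 1 library gave 355 to 503 and 146 to 242 genes. The difference in the share of mitochondrial reads was 3.44 points with all 20 libraries (exact permutation p = 0.242) and 0.374 points in Experiment 1 alone (exact permutation p = 0.4). Without 1 library it was 5.11 to 7.93 points (exact permutation p = 0.00948 to 0.062). In pairs of the same mouse it was 6.20 points (exact sign-flip p = 0.0312).

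Of 127 genes examined by name, none changed direction where it was tested, which was 102 genes in Experiment 1 alone and 121 under the stricter filter. The call was lost by 52 with all 20 libraries, 23 in Experiment 1 alone, 22 in Experiment 2 alone and at most 3 in any fit that leaves out 1 library. The 4 libraries with most endothelial or macrophage reads were chosen for leaving out after the data had been seen, and 10 of the 127 lost their call without them. The replicate block ended the call of 1, *Fdps*. The depth of TA of mouse 4 of Experiment 2 (963432 reads on genes) limits what can be said of genes with few reads there.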
